A study of Arabidopsis thaliana with 18 samples.

Results

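Gene expression in wild-type Arabidopsis thaliana seedlings was followed from 4 h to 52 h after a heat acclimation, by comparing the 3 Col 52h arrays with the 3 Col 4h arrays. These 6 arrays belong to a series of 18 Affymetrix ATH1 arrays, which also holds untreated Col seedlings and the same conditions in the bru1 mutant, with 3 biological replicates a group. Seedlings aged 4 d on GM medium with 1% glucose (23 °C by day and 21 °C by night, 16 h light and 8 h dark) were held at 37 °C for 1 h, at 23 °C for 1.5 h and at 44 °C for 45 min, beginning 6 h after dawn. All groups were collected at a matching clock time, and the untreated control was collected with the 4 h group. Seedlings at 52 h were therefore also older than those at 4 h and no untreated seedlings of that age were measured, so seedling age and time after heat cannot be told apart. The log2 changes used no control arrays, and control levels are given beside them as a description. The standard errors and p-values drew their spread from all 18 arrays, controls included.

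Heat unfolds proteins, and plants answer by transcribing heat shock protein genes under heat shock transcription factors. Most of these transcripts decline within hours of the return to normal temperature. A smaller group, the heat stress memory genes, declines slowly over days, and these genes are known in Arabidopsis for holding acquired thermotolerance after the first heat. Recovery also includes the restart of growth, of pigment synthesis and of organelle gene expression, and the lists below cover these processes.

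Values are log2 expression per probe set, on which a step of 1 is a 2-fold difference. A gene is called changed, and is written as having risen or fallen, where the adjusted p from limma (Benjamini-Hochberg, 22746 probe sets) was under 0.05; changes are log2, 52 h minus 4 h, with the standard error (SE) of the fit, and levels are mean ± SD over n = 3 arrays. A group mean of no more than 4.39, the highest lower quartile of an array, is not shown to lie above background, and a change from or to it is given as "at least". Medians of the 18 arrays lay between 6.48 and 6.55, and arrays correlated with the others of their group at a mean of between 0.992 and 0.993 for the Col 4h arrays and between 0.986 and 0.992 for the Col 52h arrays. In whole seedlings, fewer cells of a type and less RNA per cell cannot be told apart. Genes of green tissue (nuclear photosystem and light harvesting genes) had a median level of 12.95 at 4 h and 12.89 at 52 h, and 0 of 7 were called. Of 7 root genes 2 fell, with median levels of 6.19 and 5.71 but a median change of 0.03; 1 fell without Col 4h replicate 2 and 3 without Col 52h replicate 2.

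Between 4 h and 52 h 31.8% of the probe sets were called, 14.9% higher (3397) and 16.9% lower (3847). With a minimum of 2-fold, 4.66% were higher (1060) and 2.44% lower (555), so that most of the calls were small while the larger ones were more often rises. At 8-fold or more, 62 probe sets rose and 37 fell. The median change over all probe sets was -0.02. The shares of 14.9% higher and 16.9% lower are the background for every list count given here. Of the 18 named genes that fell 8-fold or more, 5 lie on the mitochondrial genome, 4 encode small heat shock proteins, 2 encode larger chaperones or co-chaperones, 2 lie in a chromosome 2 block described with the mitochondrial genes, and 1 lies on the plastid genome. Of the 100 probe sets with the largest called changes 48 have no gene name in the tables used here. A gene counts as measured here only where a probe set names that gene alone. Other list members may be on the array without a name.

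**Figure D1:**
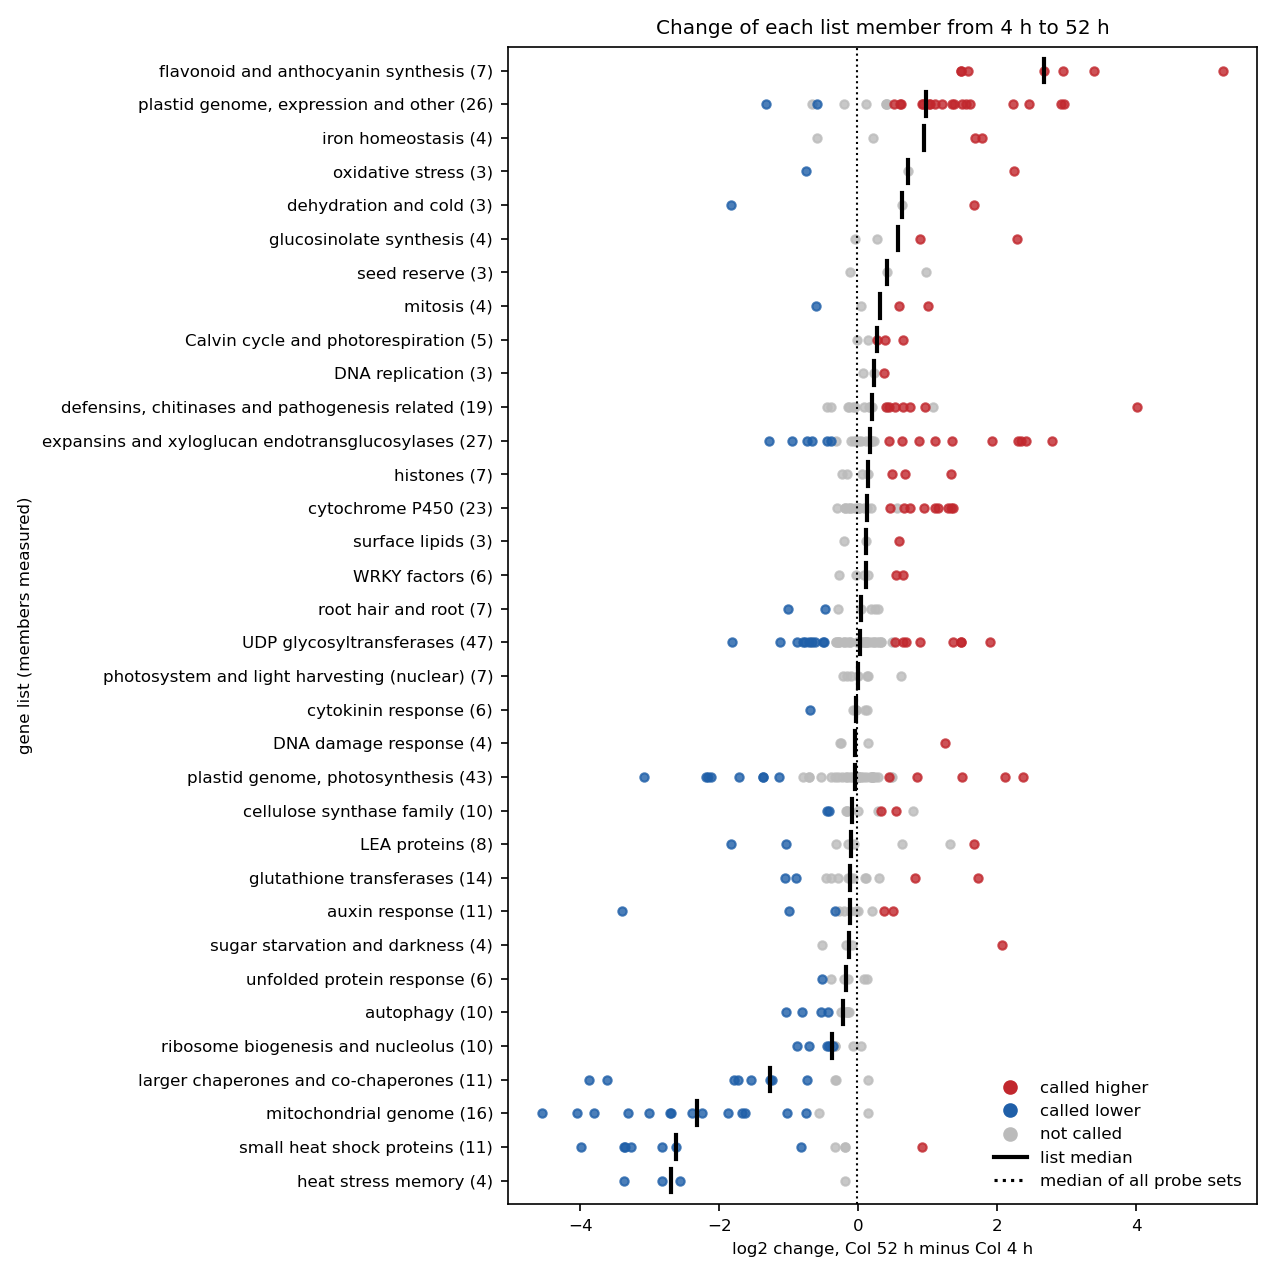
Log2 change from 4 h to 52 h in Col (x axis) of each measured member of the gene lists with at least 3 members (y axis, members measured in brackets; pseudogenes left out). Red points were called higher, blue points lower and grey points neither; black bars are list medians and the dotted line is the median of all probe sets. Heat shock and mitochondrial genome genes lie at the low end and flavonoid genes at the high end.

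Most small heat shock protein genes fell, and those whose array values follow, HSP14.2 included, were above their controls at 52 h on every array. Of 11 measured, 1 rose and 7 declined past the threshold (background 16.9% lower and 14.9% higher over all probe sets), and the median change was -2.63. Small heat shock proteins bind unfolding proteins and keep them from aggregating until larger chaperones refold them. HSP17.6C (AT1G53540), a cytosolic member and a memory gene, lay at 13.62, 13.69 and 13.32 at 4 h and at 10.02, 9.23 and 11.27 at 52 h, after 4.19, 4.27 and 4.57 in the controls. No 52 h array reached the level of any 4 h array, which the rule for the largest falls required. All 3 arrays at 52 h stayed far above the controls. The fall was 3.37 (SE 0.42, limma adjusted p = 6.9e-06). HSP22 (AT4G10250), the member of the endoplasmic reticulum and also a memory gene, lay at 12.96, 12.76 and 12.86 at 4 h and at 9.50, 9.77 and 10.84 at 52 h, a change of -2.82 (SE 0.28, limma adjusted p = 5.7e-07). Its controls were at 4.48, 4.90 and 4.97, so these groups did not overlap either.

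HSP17.4-CIII (AT1G54050), which fell furthest in the list, went from 12.71, 12.90 and 12.33 at 4 h to 8.35, 8.30 and 9.32 at 52 h, beside control values of 7.04, 6.97 and 6.79. Its fall of 3.99 (SE 0.23, limma adjusted p = 1.3e-09) left it 15.9-fold below the 4 h level. HSP17.6B-CI (AT2G29500), another cytosolic member, went from 13.35, 12.73 and 12.70 to 9.41, 8.98 and 10.56, a change of -3.28. The mitochondrial members differed in how near they came to the controls. HSP23.5 (AT5G51440) lay at 7.89, 7.14 and 8.94 at 52 h against 6.86, 6.84 and 6.76 in the controls, after 11.15, 11.58 and 11.31 at 4 h. HSP26.5 (AT1G52560) lay at 7.73, 7.32 and 9.45 at 52 h and at 10.74, 11.63 and 10.02 at 4 h, while its controls, at 4.04 ± 0.15, were not shown above background. Both fell, with changes of -3.36 for HSP23.5 and -2.63 for HSP26.5 (limma adjusted p = 4.0e-06 and 4.8e-04).

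HSP15.7 (AT5G37670), the peroxisomal small heat shock protein gene, had no called change. Its values were 10.73, 10.88 and 9.57 at 4 h and 10.07, 9.83 and 10.71 at 52 h, so the groups overlapped, with controls at 6.14, 6.48 and 5.70. The change was -0.19 (SE 0.37, limma adjusted p = 0.76), and every array at 52 h was still above every control. AT2G19310 (HSP18.5) fell by 0.83, from 11.36 ± 0.32 to 10.54 ± 0.03. AT5G47600 (HSP14.2), the member that rose, went from 4.71, 5.15 and 4.84 at 4 h to 5.71, 6.05 and 5.68 at 52 h, with controls at 5.48, 5.33 and 5.30 in between. AT4G21870 (HSP15.4, -0.33) and AT5G54660 (HSP21.7, -0.18) did not pass the test.

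Among the 4 measured memory genes, from a list of 12, HSP17.6C, HSP22 and HSA32 fell and HSP15.7 was not called, with a median of -2.70. HSA32, a heat-stress-associated protein needed for lasting thermotolerance, lay at 11.21, 11.31 and 10.85 at 4 h and at 8.63, 8.14 and 8.88 at 52 h. The change was -2.57 (SE 0.23, limma adjusted p = 1.3e-07), and the 52 h arrays lay between the 4 h arrays and the controls (6.23, 6.29 and 6.07) without overlap.

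**Figure D2:**
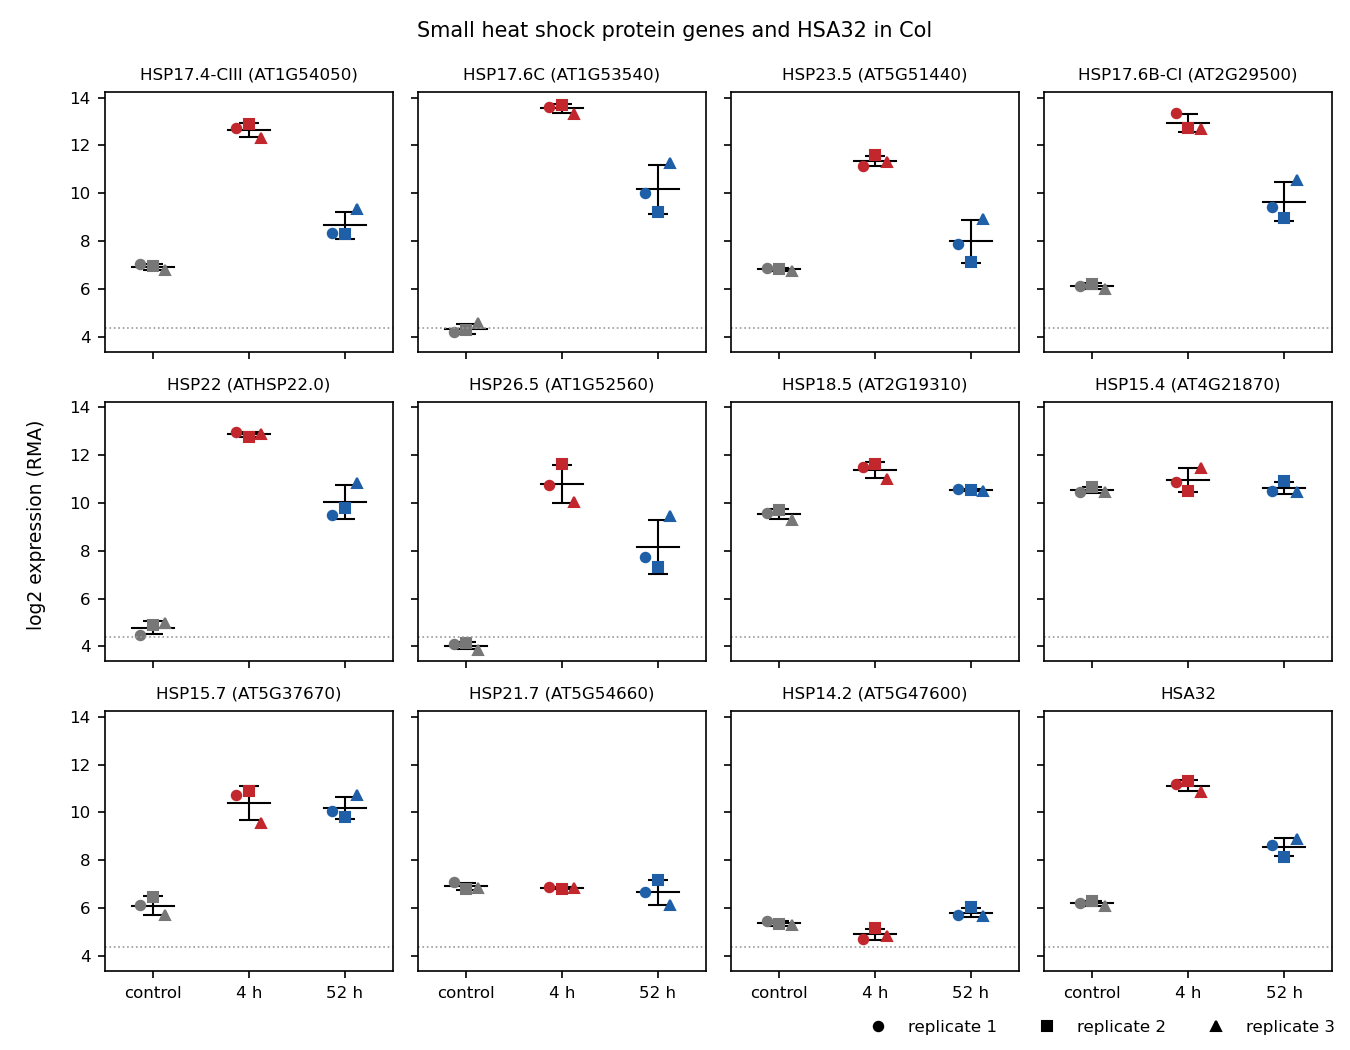
Log2 expression (y axis) of the 11 measured small heat shock protein genes and HSA32 on each Col array, in the control, 4 h and 52 h groups (x axis). Symbols are replicates, bars are mean ± SD over 3 arrays, and the dotted line marks 4.39, up to which a group mean is not shown above background. The 4 h and 52 h arrays of HSP15.7 overlap, and replicate 3 is the highest 52 h array for HSP17.6C, HSP22, HSP26.5, HSP23.5 and HSP17.6B-CI.

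Larger chaperones and co-chaperones fell as well: 8 of 11 were called lower and 0 higher, with a median change of -1.26. ROF2 (AT5G48570), a heat-induced immunophilin that binds HSP90, lay at 13.56, 13.53 and 13.36 at 4 h and at 9.45, 9.46 and 9.90 at 52 h, with controls at 7.15, 7.28 and 6.99. The fall was 3.88 (SE 0.16, limma adjusted p = 4.2e-11). The 4 h and 52 h arrays were far apart, though the rule for the largest falls required that they not overlap. Hop3, which links HSP70 with HSP90, went from 12.11, 12.27 and 12.04 to 8.47, 7.91 and 9.18, a change of -3.62, while its relatives Hop2 (-0.74) and Hop1 (-0.32, not called) had smaller values. Fes1A, an HSP70-binding protein, fell by 1.73, from 10.01, 11.07 and 9.59 to 8.12, 7.94 and 9.40. AT3G12050, an activator of the HSP90 ATPase, fell by 1.79 to 9.40 ± 0.15, beside 9.43 ± 0.05 in the controls. The HSP70 gene AT3G09440 fell by 1.54, from 11.48, 12.68 and 11.05 to 10.15, 9.99 and 10.45, where all 3 arrays were below the controls (10.98, 11.04 and 11.16). Outside the list, AT1G71000, for which the tables give no function, had the second largest fall of all named genes, 4.16 (SE 0.51, limma adjusted p = 6.4e-06), from 10.70, 11.45 and 9.48 to 5.80, 5.57 and 7.77. Of 6 genes of the unfolded protein response, which serves folding in the endoplasmic reticulum, 1 fell (AT5G07340, -0.52), near the share of 16.9% over all probe sets.

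Arrays of a group differed in how far they had moved. Col 52h replicate 3 lay at least 1 log2 step above both other 52 h arrays for 5 of 11 small heat shock protein genes, and Col 4h replicate 2 lay as far above both other 4 h arrays for 4 of 11 larger chaperones. Of the probe sets called at least 2-fold, Col 52h replicate 3 was the 52 h array nearest to the 4 h mean in 557 of 1060 rises (52.5%) and 263 of 555 falls (47.4%). Without that array the small heat shock protein median was -3.22, with 7 lower and 1 higher as before, and 9 of 11 larger chaperones fell. Without Col 4h replicate 2 the counts were 7 lower and 1 higher, and 7 lower, in these lists.

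The flavonoid and anthocyanin genes rose as a group: 7 of 7 were called higher (background 14.9%), with a median change of 2.67. These enzymes make the red and ultraviolet-absorbing pigments of seedlings. DFR, dihydroflavonol reductase at the entry to anthocyanins, was at 3.94, 4.63 and 4.23 at 4 h, a mean not shown above background, and at 9.91, 10.85 and 7.80 at 52 h, beside 10.88, 10.82 and 10.12 in the controls. The 4 h and 52 h arrays did not overlap, which the rule for the largest rises required, and the rise was at least 5.25 (SE 0.48, limma adjusted p = 2.1e-07). Replicate 3 was the lowest 52 h array for all 7 genes and lay at least 1 log2 step below both others for 3 of them; with that array left out all 7 rose and the median was 2.92.

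The anthocyanin glucosyltransferase gene AT4G14090 went from 5.03, 5.11 and 5.07 at 4 h to 8.83, 9.45 and 7.14 at 52 h, a rise of 3.40. UF3GT, which adds a xylose to anthocyanins, went from 5.45, 5.63 and 5.34 to 8.67, 9.34 and 7.25, a rise of 2.95. For both, every 52 h array was above all 4 h arrays and below all controls. CHIL, a chalcone isomerase-like protein that aids the first steps, rose by 2.67 to 10.28 ± 0.59, beside 10.92 ± 0.27 in the controls. The flavonol glycosyltransferase genes UGT78D1 and UGT78D2 each rose by 1.48, and AT5MAT, an anthocyanin malonyltransferase gene, by 1.59.

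**Figure D3:**
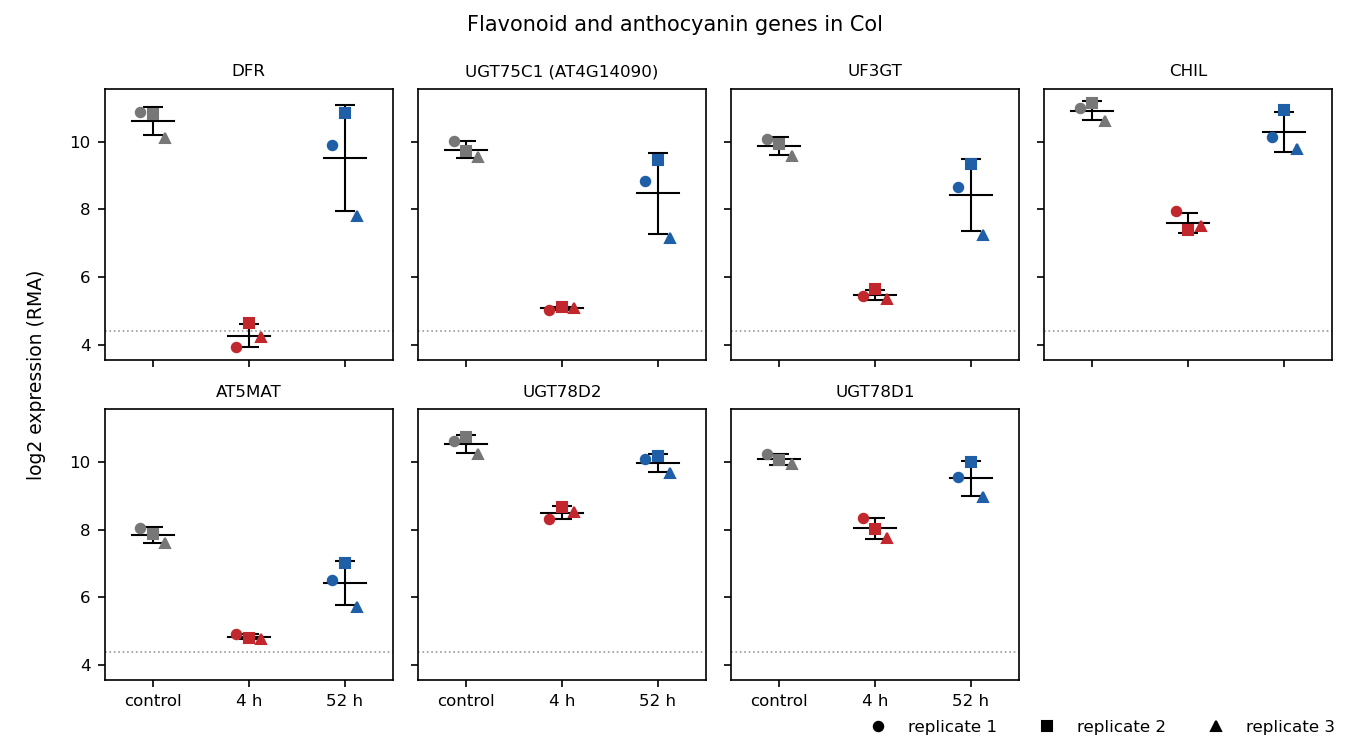
Log2 expression (y axis) of the 7 measured flavonoid and anthocyanin genes on each Col array, in the control, 4 h and 52 h groups (x axis). Symbols are replicates, bars are mean ± SD over 3 arrays and the dotted line marks 4.39, up to which a group mean is not shown above background. All genes are lowest at 4 h, and replicate 3 is the lowest array at 52 h in every panel.

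Transcripts of the mitochondrial genome, which encodes part of the respiratory chain and of cytochrome c maturation, fell between 4 h and 52 h. Of 16 genes measured 14 fell and 0 rose, with a median change of -2.32; the median level of the list was 9.08 at 4 h, 6.23 at 52 h and 4.76 in the controls. nad6, a subunit of complex I, had the largest fall of all named genes: it lay at 12.06, 11.37 and 11.49 at 4 h and at 7.04, 6.42 and 7.80 at 52 h, with controls at 3.59, 3.36 and 3.52, not shown above background. Its change was -4.56 (SE 0.31, limma adjusted p = 7.7e-09), and all 52 h arrays were above all controls. The rule for the largest falls took only genes whose 4 h and 52 h arrays did not overlap.

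Other complex I genes moved by different amounts. nad5 went from 11.75, 11.25 and 11.72 to 7.25, 7.10 and 8.21, a fall of 4.05. nad4L (-3.81), nad9 (-3.01), nad1 (-2.71) and nad4 (-0.76) fell too, and nad7 fell by at least 1.03. nad2 was not shown above background in either group. For complex IV, cox1 lay at 12.13, 11.98 and 12.15 at 4 h and at 8.74, 8.60 and 8.95 at 52 h, beside 5.96, 6.02 and 6.08 in the controls, a change of -3.32 (SE 0.20, limma adjusted p = 2.0e-09), and cox2 fell by 2.40. Of the cytochrome c maturation genes ccmFN2 (-2.70), ccmFC (-2.25) and ccmB (-1.67) fell, while ccmFN1 (-0.57) did not pass the test. The maturase gene matR fell by at least 1.88. The transporter gene mttB fell by 1.63. Within the 52 h group replicate 2 was the lowest array for 15 of 16 genes and replicate 3 the highest for 15 of 16.

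A copy of much of the mitochondrial genome lies in the nuclear genome on chromosome 2, so signal from the organelle and from this block cannot be told apart on probes that match both. Of 33 measured loci tagged AT2G07660 to AT2G07830, 20 fell and 0 rose, with a median change of -0.60. Among the 33, 18 are read by probe sets whose names mark them as matching more than 1 transcript. The probe set that reads nad6 has such a name too. AT2G07777 fell by 3.51, from 9.23, 8.82 and 9.20 to 5.26, 5.78 and 5.68, and AT2G07678 fell by at least 3.21, from 7.31, 7.17 and 7.13 to 4.02, 3.89 and 4.07. This block was looked at after the largest falls were seen.

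Signs of RNA labelling and quality were read from the array's control probe sets. The 25S ribosomal RNA signal was 12.82 ± 0.40 at 4 h and 12.27 ± 0.19 at 52 h, a difference of -0.55 (exact permutation test, two-sided, p = 0.2; the smallest p that 3 against 3 arrays can give is 0.1), and 11.50 ± 0.20 in the controls. The difference between 3' and 5' probe sets changed by -0.14 for GAPDH (p = 0.2) and by -0.10 for actin (p = 0.6), by the same exact test. For GAPDH it was 0.62 ± 0.09 at 4 h, 0.48 ± 0.06 at 52 h and 0.41 ± 0.05 in the controls. For actin it was 3.27 ± 0.15, 3.17 ± 0.28 and 2.73 ± 0.06. Every array at 4 h and 52 h lay above every control for both, which was not tested. Ribosomal and organelle RNAs mostly lack long poly(A) tails. The part of the 25S ribosomal RNA difference in the mitochondrial and plastid values was not tested.

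Plastid genome transcripts rose and fell. Of 26 genes for plastid gene expression and other functions 18 rose and 2 fell (median 0.98), and of 43 photosynthesis genes 5 rose (11.6%) and 8 fell (18.6%), with a median of -0.05; the shares over all probe sets were 14.9% and 16.9%, near those of the photosynthesis genes. The difference between the lists was not tested. Genes of the plastid ribosome led the rises. rps18 lay at 8.25, 8.12 and 7.25 at 4 h and at 11.06, 10.66 and 10.79 at 52 h, with controls at 11.01, 10.82 and 10.14, a rise of 2.96 (SE 0.24, limma adjusted p = 4.9e-08). rps16 went from 5.02, 4.90 and 4.58 to 8.11, 7.52 and 7.62, a rise of 2.92, and rpl33 rose by 2.23. In all 3 genes the 4 h arrays lay below both other groups, which overlapped each other. Of the genes of the plastid-encoded RNA polymerase, rpoC1 rose by 2.45, rpoC2 by 1.20 and rpoA by 0.52, but rpoB fell by at least 0.60. matK, which aids intron splicing, rose by 1.38, and clpP, a protease subunit, by 0.60. The other gene that fell, rps14, did so by at least 1.32.

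Among the photosynthesis genes atpA, a subunit of ATP synthase, rose by 2.37, from 7.61, 7.35 and 7.94 to 10.22, 9.65 and 10.12, and psbZ by 2.12, from 9.52, 8.99 and 9.34 to 11.45, 11.20 and 11.55. The falls were led by psaA, a core protein of photosystem I, which lay at 9.67, 7.39 and 9.86 at 4 h and at 5.94, 5.73 and 6.00 at 52 h, below its controls (6.48, 6.41 and 6.82). Its change was -3.08 (SE 0.42, limma adjusted p = 2.1e-05). The photosystem II genes psbB (-2.19) and psbD (-2.17) fell; psbD lay at 10.82, 9.23 and 10.93 at 4 h and at 8.23, 7.99 and 8.26 at 52 h. petD (-2.13), psaC (-1.72), ndhG (-1.38), psbT (-1.37) and psbA (-1.14) were the other members that fell. Col 4h replicate 2 was lower than both other 4 h arrays for 29 of the 43 genes and at least 1 log2 step lower for 12, and for psbA it lay among the 52 h values. Without that array 11 photosynthesis genes fell and 5 rose, and in the other plastid list 3 fell and 18 rose. Without Col 52h replicate 3, 7 photosynthesis genes fell and 5 rose. In the fit on the 6 Col 4h and Col 52h arrays 6 fell and 5 rose.

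**Figure D4:**
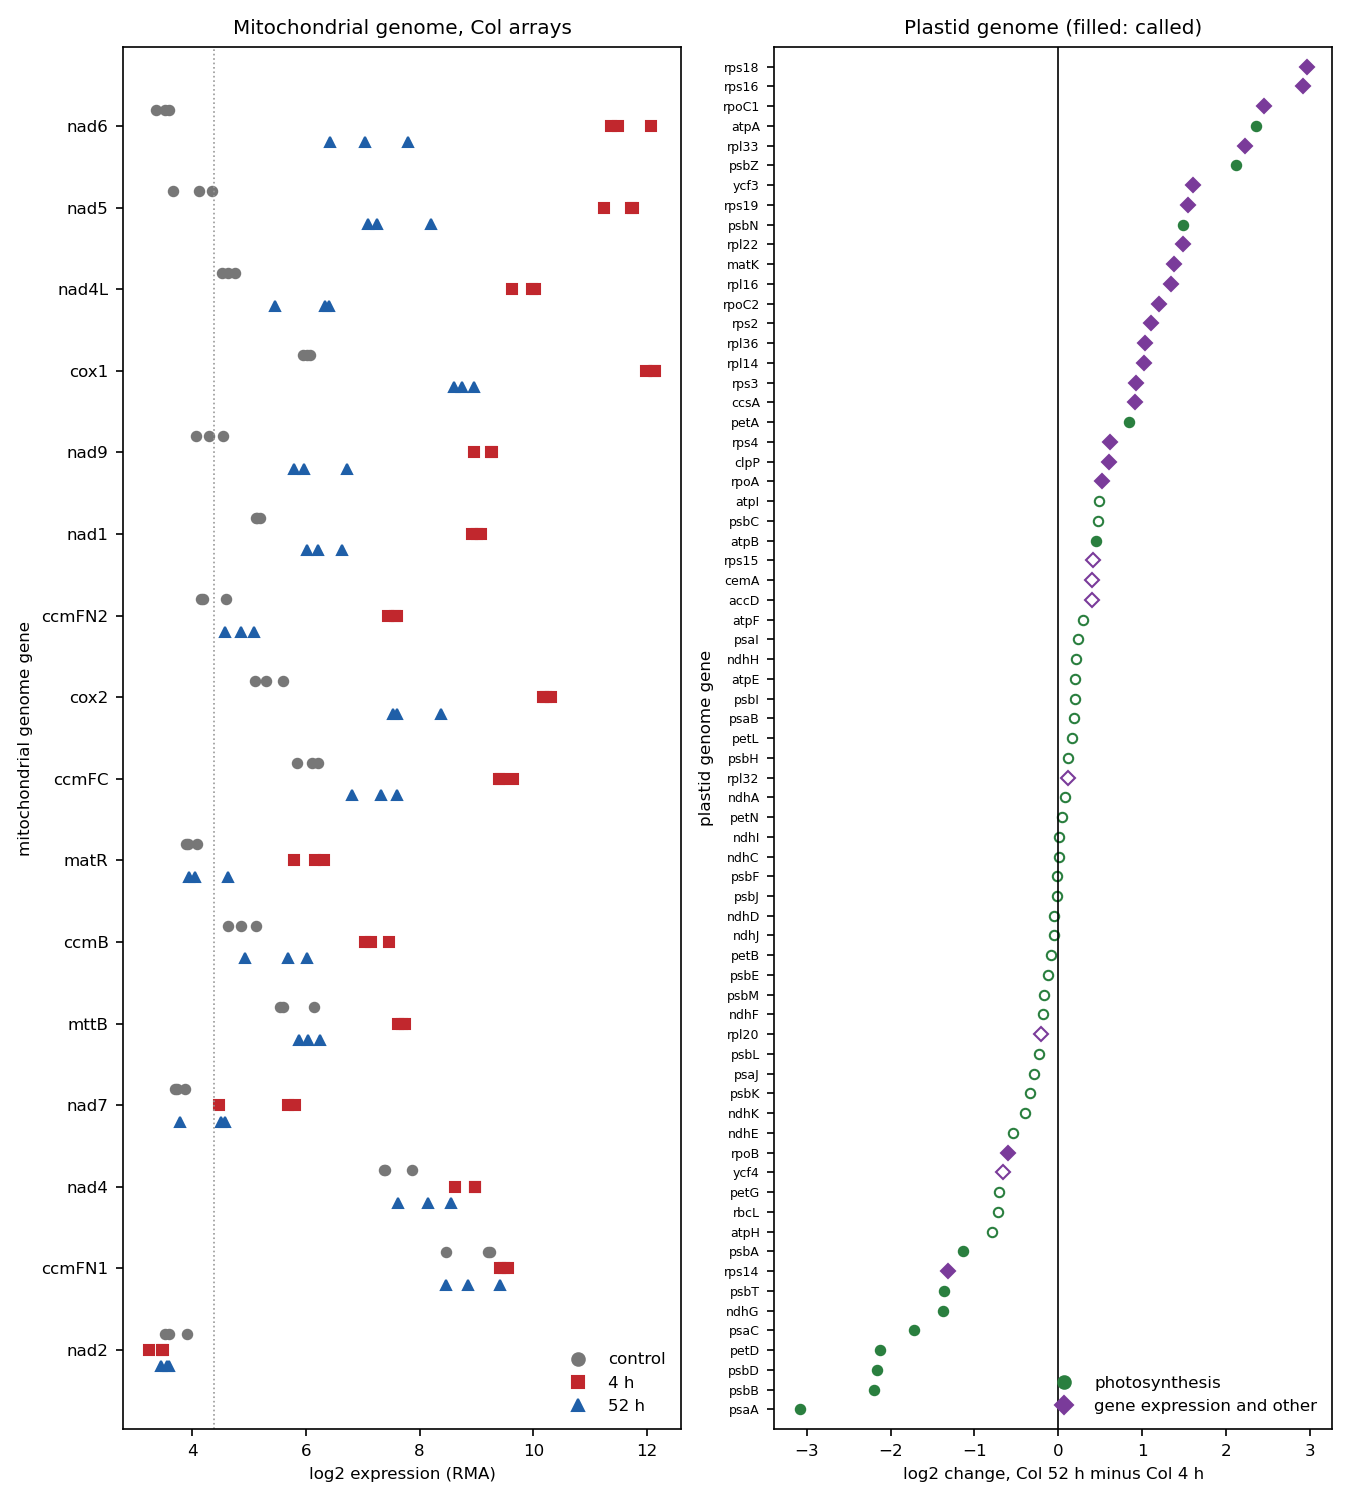
Left, log2 expression (x axis) of the 16 mitochondrial genome genes (y axis) on each Col array of the control, 4 h and 52 h groups; the dotted line marks 4.39, up to which a group mean is not shown above background. Right, log2 change from 4 h to 52 h in Col (x axis) of the 69 plastid genome genes (y axis), green for photosynthesis and purple for gene expression and other functions, filled where called. Most mitochondrial genes lie between control and 4 h levels at 52 h, and the purple plastid genes lie mostly on the side of rises.

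Of the nuclear photosystem and light harvesting genes 0 of 7 were called, with changes between -0.22 and 0.61. Of 5 genes of carbon fixation and photorespiration 3 rose by small amounts, namely HPR, hydroxypyruvate reductase (0.65), PRK, phosphoribulokinase (0.39), and SBPASE, sedoheptulose bisphosphatase (0.26). HPR went from 12.56 ± 0.09 to 13.20 ± 0.04, beside 13.25 ± 0.11 in the controls. Without Col 4h replicate 2 or without Col 52h replicate 2, 1 of the 5 rose.

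Genes that loosen the cell wall for growth were among the larger rises. Expansins and xyloglucan endotransglucosylases (XTH) had 10 of 27 members higher (37.0%) and 6 lower (22.2%), with a median change of 0.16. The shares over all probe sets were 14.9% and 16.9%, and 6 of the 27 were not shown above background in either group. XTH32 lay at 6.77, 6.69 and 6.41 at 4 h and at 9.45, 9.87 and 8.94 at 52 h, with controls at 9.43, 9.50 and 9.38, a rise of 2.79 (SE 0.19, limma adjusted p = 6.5e-09). EXPB3 rose by 2.42, EXPA4 by 2.34, XTH19 by 2.30 and EXLA1 by 1.92. XTH19 went from 7.00, 6.60 and 6.59 to 8.99, 9.30 and 8.79, all above its controls (8.26, 8.19 and 8.31). EXPA8 (-1.29), EXLA2 (-0.96) and XTH33 (-0.73) fell. EXO, a cell wall protein of brassinosteroid-promoted growth, rose by 3.68 (SE 0.20, limma adjusted p = 7.4e-10), from 7.69, 8.28 and 7.29 to 11.36, 11.40 and 11.54, where every array was above its controls (10.29, 10.53 and 10.07). ATPMEPCRB, a pectin methylesterase gene, rose by 3.62, from 4.97, 4.36 and 4.80 to 8.43, 8.74 and 7.81. Leaving out Col 52h replicate 3 gave 8 higher and 4 lower in the expansin and XTH list, and the fit on the 6 Col 4h and Col 52h arrays gave 9 and 2.

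Of the other named rises, AT1G65490 had the largest in the comparison. It lay at 5.37, 4.73 and 4.66 at 4 h and at 11.36, 11.62 and 10.67 at 52 h, with controls at 10.93, 11.34 and 11.13, a change of 6.29 or 78.4-fold (SE 0.23, limma adjusted p = 1.0e-11). The 52 h arrays spanned the control values. They lay far above the 4 h arrays, though the rule for the largest rises required that these not overlap. The tables give no function for this locus, nor for AT3G28220 (4.76), AT1G60590 (4.52), AT2G25510 (4.46), AT5G48490 (4.37), AT1G23205 (at least 4.01), AT5G50915 (3.66), AT1G09500 (3.63), AT3G44970 (3.58) and AT5G24210 (3.50), which follow it. On all 3 arrays at 52 h AT5G48490 and AT1G09500 were above their controls. AT1G09500 lay at 6.29, 5.36 and 6.35 at 4 h, at 9.61, 9.34 and 9.94 at 52 h and at 6.61, 6.76 and 6.16 in the controls.

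PDF1.4 and AT2G04050 were likewise high at 52 h alone. PDF1.4, of the defensin family of small secreted antimicrobial peptides, lay at 6.10, 5.60 and 5.64 at 4 h, at 9.61, 8.98 and 10.78 at 52 h and at 4.82, 4.96 and 5.76 in the controls, a rise of 4.01 (SE 0.42, limma adjusted p = 9.7e-07). The 52 h arrays were apart from both other groups, which overlapped. Their lack of overlap with the 4 h arrays was required by the rule for the largest rises. Of 19 genes for defensins, chitinases and pathogenesis-related proteins 7 rose (36.8%, against 14.9% over all probe sets) and 0 fell, with a median of 0.20. After PDF1.4 the changes were small (LCR69 0.96, OSM34 0.75, THI2.2 0.65), and 6 of the 19 were not shown above background in either group. Without Col 4h replicate 2, 4 of them rose, and without Col 52h replicate 3, 5. AT2G04050, a transporter gene of the MATE family, lay at 5.45, 5.03 and 5.28 at 4 h, at 9.46, 9.20 and 10.53 at 52 h and at 5.39, 5.18 and 5.70 in the controls, a rise of 4.47 (SE 0.51, limma adjusted p = 2.7e-06).

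The auxin gene IAA29 and the clock gene GI were among the large falls. IAA29, an early auxin-response repressor, went from 8.51, 8.21 and 7.33 at 4 h to 4.35, 4.74 and 4.76 at 52 h, beside 4.16, 4.33 and 4.26 in the controls, a fall of 3.40 (SE 0.24, limma adjusted p = 1.0e-08). Of 11 auxin-response genes 3 fell and 2 rose, and apart from IAA29 and GH3.3 (-0.995), which conjugates auxin to amino acids, the changes were smaller. The list's counts lie near the background (14.9% higher and 16.9% lower), and without Col 4h replicate 2, or in the fit on the 6 Col 4h and Col 52h arrays, 2 fell and 0 rose. GI (GIGANTEA), an evening gene of the circadian clock, fell by 3.08 (SE 0.22, limma adjusted p = 1.1e-08), from 8.35, 8.71 and 8.99 to 5.59, 5.27 and 5.97, with controls at 6.23, 5.89 and 6.42. No other gene of the clock list could be read by name here, though the array may hold unnamed probe sets for some. AT5G12050, for which the tables give no function, fell by 3.36, from 10.70, 10.76 and 9.88 to 7.00, 7.35 and 6.91. The cytokinin response regulator RR16 fell by 0.69, alone among 6 cytokinin genes called.

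Autophagy delivers cytoplasm to the vacuole for breakdown, and ATG8 proteins coat its membranes. Of 10 autophagy genes 4 fell (40.0%, against 16.9% over all probe sets) and 0 rose, all 4 of them ATG8 genes: APG8A (-1.05), ATG8H (-0.81), ATG8G (-0.53) and ATG8D (-0.43). APG8A lay at 9.98, 9.87 and 9.80 at 4 h and at 8.74, 8.81 and 8.97 at 52 h, near its controls (8.70, 8.73 and 8.59). Of 10 genes of ribosome biogenesis 5 fell and 0 rose, with a median of -0.37, led by AT5G66540 (-0.88) and AT4G04940 (-0.71). The number depended on the arrays fitted, with 1 lower in the fit on the 6 Col 4h and Col 52h arrays, 2 lower without Col 52h replicate 2 and 7 lower without Col 52h replicate 3.

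Of 23 measured cytochrome P450 genes 9 rose (39.1%) and 0 fell, led by CYP71B34 (1.36) and CYP71B5 (1.33). The list median was 0.12, and 8 of the 23 were not shown above background in either group. Of 47 UDP glycosyltransferases 8 rose (17.0%) and 10 fell (21.3%), near the shares of 14.9% and 16.9% over all probe sets; UGT76B1, which acts on salicylic acid, fell by 1.82, and UGT73C1 rose by 1.90. BCAT4, at the start of methionine-derived glucosinolate synthesis, rose by 2.28, from 7.34, 6.33 and 7.33 to 9.69, 10.04 and 8.12, and AT2G31790 of the same list of 4 by 0.89. Of the cold and dehydration genes COR47, a dehydrin, fell by 1.84, from 12.66, 12.96 and 12.54 to 10.78, 10.83 and 11.04, while COR15A, a chloroplast-protecting protein, rose by 1.67, from 5.75, 5.51 and 6.44 to 7.33, 8.40 and 6.98. PPDK, pyruvate phosphate dikinase, rose by 2.07, from 7.06, 6.93 and 7.20 to 8.97, 8.86 and 9.57, the 1 call among 4 genes of sugar starvation and darkness. STZ, a zinc finger repressor of stress responses, rose by 2.24, from 6.64, 8.25 and 6.10 to 9.32, 9.26 and 9.14.

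The log2 change over the same interval in the bru1 mutant shares no array with the wild-type change and showed where the wild-type changes recur. The calls in both genotypes rest on a common spread per probe set from all 18 arrays, so they are not independent of each other. In bru1 18.3% of the probe sets were called higher (4154) and 20.1% lower (4579). Of the 1615 wild-type calls of at least 2-fold, 1575 (97.5%) had the same sign in bru1 and 1454 were called in the same direction there; over all probe sets, called or not, 75.1% had the same sign. The difference between the genotypes in the change passed the test for 131 probe sets (0.576%), 46 with a higher and 85 with a lower value in bru1, of which 65 were among the 1615. These counts were not stable: they were 250 and 294 without Col 52h replicate 2, 137 and 272 without Col 4h replicate 2, 126 and 373 without bru1 4h replicate 2 and 17 and 50 without bru1 4h replicate 1. Centring every array on its median gave 62 and 69. Among the memory genes the bru1 changes of HSP17.6C (-4.19), HSP22 (-2.93), HSP15.7 (-1.35) and HSA32 (-3.31) had no called difference from the wild type (limma adjusted p of the difference between 0.3 and 0.94 for these genes).

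Of the 120 genes named for the wild type, 6 differed. AT2G04050 lay at 6.00, 6.21 and 6.29 at 4 h and at 8.17, 6.41 and 4.94 at 52 h in bru1, a change of 0.34 against 4.47 in Col. STZ changed by -0.98 in bru1 and 2.24 in Col, and THI2.2, of the thionin family of antimicrobial peptides, by -1.11 and 0.65. GH3.3 fell further in bru1 (-2.996 against -0.995), and OSM34, of the osmotin family, rose further (2.73 against 0.75). psbD changed by 0.33 in bru1, where its 4 h arrays lay at 8.19, 8.58 and 8.11. Of the 43 plastid photosynthesis genes 16 rose and 0 fell in bru1, with a median change of 0.39 there, and the difference was called for 2, psbD and ndhG. The flavonoid gene AT5MAT also differed (adjusted p of the difference 0.043), rising by 3.07 in bru1 and 1.59 in Col; it lies outside the 120 and was looked up after its value was seen.

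**Figure D5:**
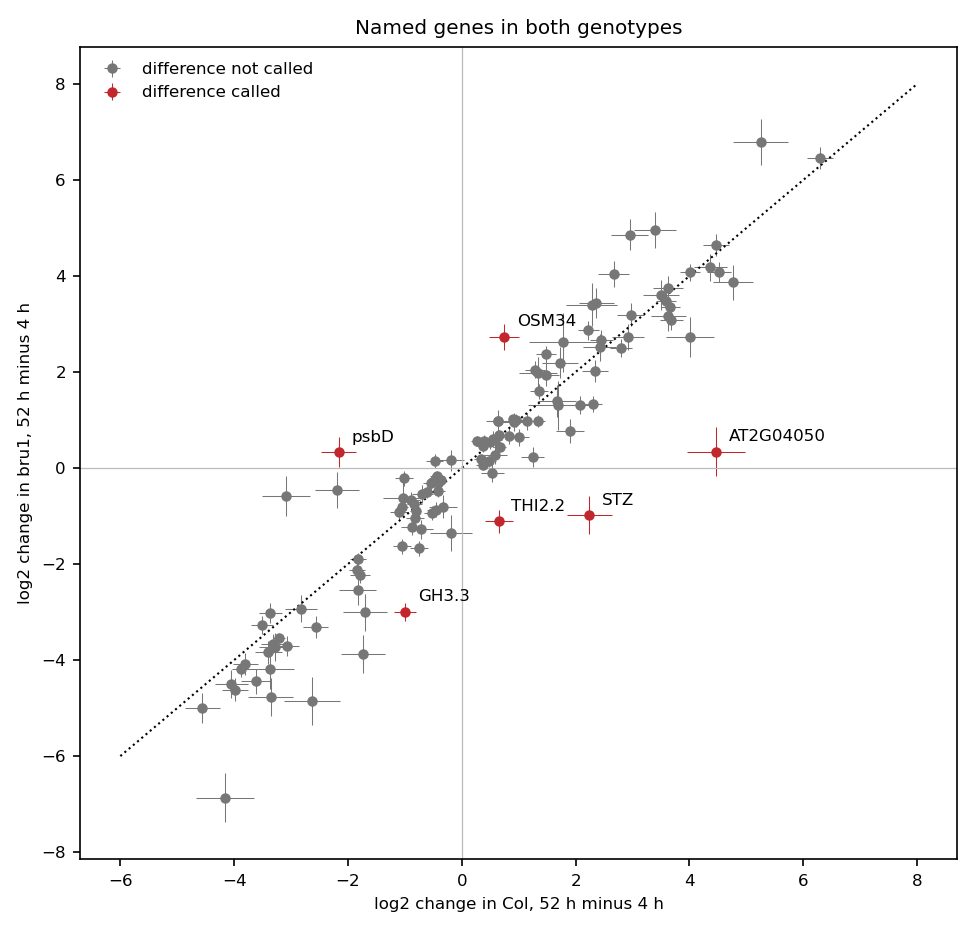
Log2 change from 4 h to 52 h in bru1 (y axis) against that in Col (x axis) for the 120 genes named for the wild type, with SE bars from limma; the dotted line marks equal changes. The 6 genes in red have a called difference between the genotypes, and the grey genes do not.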

How the data were processed

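Biotin-labelled total RNA of whole seedlings was hybridised to Affymetrix ATH1 arrays, per the labels' protocols, which name a whole-transcript labelling kit. The values are log2 expression per probe set as the authors deposited them, computed by RMA according to the submitters' processing notes, with no version or settings stated there. Because RMA equalises the distributions of the arrays, a seedling-wide gain or loss of RNA would be invisible. The 18 arrays were grouped by genotype and treatment from the labels, 3 biological replicates a group; precision is limited by having so few arrays. The labels give no hybridisation run.

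A mean per group was fitted over all 18 arrays with limma 3.58.1 (lmFit, eBayes) under R 4.3.3, with 12 residual degrees of freedom. The contrasts were Col 52h minus Col 4h, the same in bru1, and their difference. P-values were adjusted by Benjamini-Hochberg over 22746 probe sets, leaving out 64 AFFX probe sets; the threshold was 0.05. The fit was tested on simulated data with known changes. Control probe sets were compared by exact permutation tests. Of the probe sets 13513 (59.4%) have 1 gene, 503 have several and are not named, and 8730 are unnamed here. They stand for 13355 genes; for the 147 with more than 1 probe set, the one with the highest mean was read. Names come from the platform table and RefSeq (TAIR10.1), and 13301 genes matched; where these give a locus tag alone, the common name of a heat shock gene is added.

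Of 47 gene lists, 35 had at least 3 measured members, 9 had 1 or 2 and 3 had 0; lists are described by counts and medians, with no set test. Named are the 15 largest called rises and the 15 largest called falls whose arrays do not overlap. All memory and small heat shock protein genes are named too, with up to 4 called members of each other list. Further members were chosen after their values were seen. For the 30 largest changes the lack of overlap between 4 h and 52 h follows from the rule and is no support. Over all probe sets the 52 h arrays lay wholly above the 4 h arrays in 17.8% and wholly below in 20.3%. The members and lists were chosen with earlier results of these data known. The rule for 2 lists was corrected after their members were seen. Replicate numbers were not used to pair the arrays in the main fit. Deviations of same-numbered Col 4h and Col 52h arrays correlated at -0.01, -0.25 and 0.05, and those of differently numbered arrays between -0.27 and 0.31. With 3 arrays a group, these values cannot show whether same-numbered arrays were handled together. Alternatives were other array sets, re-normalisation, median centring, a filter on dim probe sets, array weights, another prior, a replicate block and leaving out each array.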

Additional observations from a re-analysis of the deposited data

Results flagged for a closer look

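The 6 results below were picked out because the change from 4 h to 52 h differed between bru1 and Col in the limma test of the difference (bru1 change minus Col change, adjusted over all probe sets, 3 arrays a group). For AT2G04050 the difference was -4.13 (SE 0.72, adjusted p = 0.0095); the bru1 arrays at 52 h lay at 8.17, 6.41 and 4.94, those of Col at 9.46, 9.20 and 10.53. For STZ it was -3.22 (SE 0.56, adjusted p = 0.0098), with the Col 4h arrays at 6.64, 8.25 and 6.10. For psbD it was 2.495 (SE 0.44, adjusted p = 0.01), with the Col 4h arrays at 10.82, 9.23 and 10.93. GH3.3 had a difference of -2.001 (SE 0.27, adjusted p = 0.0016), OSM34 of 1.98 (SE 0.37, adjusted p = 0.018) and THI2.2 of -1.76 (SE 0.34, adjusted p = 0.023). Over 19 alternatives each, read after the data were seen, GH3.3 passed in all 19, AT2G04050, psbD and STZ in 18, OSM34 in 14 and THI2.2 in 13, with the same sign throughout. The highest adjusted p over the alternatives was 0.11 for THI2.2. Whether a hybridisation run moved with the genotype was not tested.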

How the results depend on the processing

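Of the wild-type results, the counts of probe sets called stayed within 1.5 times under every alternative, from 2605 to 5056 higher and from 2665 to 5617 lower, with the fewest in the fit on the 6 arrays alone and the most with array weights. Leaving out 1 array gave 2835 to 3353 higher and 3058 to 3899 lower. All 30 of the largest rises and falls kept their direction and their call in every alternative, as did 96 of the 120 named genes. The 30 were chosen as the largest calls without overlap in the main fit, so this outcome was largely set by the choice. For the other named genes 105 values lost the call with the direction kept, and AT4G21870 gained one with array weights (-0.58, limma adjusted p = 0.019). The list medians moved by more than the spread between replicates in 6 of 490 values, among them the P450 genes (0.66 without dim probe sets). Control probe set differences moved by less than that spread, for 25S ribosomal RNA between -0.76 and -0.36 without 1 array.

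The count of genotype differences depended on the arrays and the fit. Against 46 higher and 85 lower, array weights gave 1322 and 1486, the fit on the 12 arrays at 4 h and 52 h gave 14 and 40, and the replicate block gave 28 and 66. Leaving out 1 array gave 17 to 250 higher and 49 to 373 lower: 250 and 294 without Col 52h replicate 2, 137 and 272 without Col 4h replicate 2, 126 and 373 without bru1 4h replicate 2, and 17 and 50 without bru1 4h replicate 1. The cause was not tested. With the replicate block the wild-type calls were 3262 higher and 3654 lower. The labels give same-numbered samples only a shared number and do not say whether they were handled together. The heat shock element search was not run, since no promoter sequences were used here. Reading the mean of its probe sets gave nad5 a change of -3.85. With 3 arrays a group, changes of dim probe sets are limited by background.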

Other observations

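Changes of the mitosis and histone genes lay between -0.61 and 1.33. Of 4 mitosis genes the Aurora kinase genes AUR2 (1.00) and AUR1 (0.58) rose and SIM, an inhibitor of division in trichomes, fell (-0.61); the arrays of AUR1 at 4 h and 52 h overlapped, and 1 of the 4 rose without Col 4h replicate 2, without Col 52h replicate 2 or in the fit on the 6 Col 4h and Col 52h arrays. Of 7 histone genes 3 rose, led by the linker histone gene HIS1-3 with a rise of 1.33. It lay at 5.84, 5.69 and 5.35 at 4 h and at 6.73, 6.48 and 7.66 at 52 h. Of 4 DNA damage response genes AT5G60250 rose (1.24). Of 4 iron homeostasis genes BHLH101, a regulator of iron uptake, rose by 1.78 and AT1G47400 by 1.68; at 4 h BHLH101 lay at 5.38, 5.35 and 7.01, with replicate 3 near the 52 h arrays (7.29, 7.81 and 7.98), and without Col 4h replicate 2 or without Col 52h replicate 2 0 of the 4 rose and 1 fell.

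Of 989 measured pseudogenes 9 rose (0.91%) and 22 fell (2.22%), far below the shares of 14.9% and 16.9% over all probe sets. Among the 989, 839 were not shown above background in either group. Without Col 52h replicate 2, 11 rose and 14 fell, and in the fit on the 6 arrays 4 rose and 13 fell. Among those that fell were AT1G10260 (-1.83) and AT3G17110 (-1.70). Of 14 glutathione transferases GSTU20 (1.73) and GSTU18 (0.82) rose and GSTU25 (-1.05) and GSTU22 (-0.90) fell. These shares of 14.3% each way lie near the background of 14.9% and 16.9%. Of 10 cellulose synthase family genes 2 rose and 2 fell, near the background of 14.9% and 16.9%; 0 rose without Col 52h replicate 2, 3 rose without Col 52h replicate 3, and 1 rose and 1 fell without Col 4h replicate 2. Of 8 genes for LEA proteins, which protect drying cells, 1 rose and 2 fell, also near the background, with 1 lower without Col 4h replicate 2 or Col 52h replicate 2 and 3 lower without Col 52h replicate 3. Of 3 DNA replication genes and 3 surface lipid genes 1 each rose and 0 fell, and in the fit on the 6 arrays 0 of the DNA replication genes were called. Of 3 oxidative stress genes STZ was the 1 called higher and 1 fell. Of 6 WRKY transcription factor genes 2 rose, 0 without Col 4h replicate 2 and 1 without either of Col 52h replicates 2 and 3. Of 3 seed reserve genes 0 were called.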
